A study of Arabidopsis thaliana with 6 samples.

Results

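Tandem acceptors are pairs of 3′ splice sites that lie 3 bases apart, so that 1 intron can end at either of them and the spliced RNA gains or loses 3 bases. The annotated exon bins of the class Alt3ss or Alt3ss* that are exactly 3 bases long, in loci with a mean of at least 20 gene reads per library, were followed here. Of 158089 exon bins in the series, 2701 were of these classes, 535 of them were 3 bases long, and 512 bins in 494 loci lay in genes over the read limit. The lowest mean gene count inside that limit was 21.3 and the highest outside it was 19.7. Of the 512 bins, 458 had the class Alt3ss and 54 the class Alt3ss*, with no key to the asterisk in the labels.

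At the end of an intron, the spliceosome joins the exon to an AG dinucleotide that usually follows a stretch of pyrimidines. The U2 auxiliary factor reads this region first, its small subunit at the AG and its large subunit at the pyrimidines, and the catalytic steps then settle which AG is used. Where a second AG follows at once, both can serve, and in a coding exon the reading frame is kept whichever is used. PRMT5 is an arginine methyltransferase that places symmetric dimethyl marks on spliceosomal Sm proteins and other RNA-binding proteins, and plants without it are known for defects in splicing, flowering time and the circadian clock.

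The samples were 3 libraries of wild type Arabidopsis thaliana and 3 of a prmt5 mutant, both in the Col-0 ecotype, made from polyadenylated RNA of whole plants. The plants had been stratified for 4 days and grown at 22 °C in unbroken white light until day 15. The labels name no prmt5 allele, and nothing says whether the replicates came from separate cultures, so p-values measure the spread between these samples, which may be technical. In whole plants, fewer cells of a type and less RNA per cell cannot be told apart.

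Gene counts per library ran from 29145068 to 59480457, and junction counts from 13167696 to 26480072. PRMT5 RNA was still present in the mutant, at 56.1 ± 2.5 CPM (CPM is the count scaled to the library's total; SD, n = 3) against 31.9 ± 3.2 CPM in wild type (log2 change 0.81 ± 0.10 SE, edgeR adjusted p = 0.00011). The leaf genes RBCS1A and CAB1 and the root genes PYK10 and LRX1 were read in every library, with LRX1 lowest at 9.27 CPM in wild type. The libraries were not covered alike from end to end of their genes. On the log2 scale, the median 3′ over 5′ read density was 1.376 to 1.815 in wild type, against 0.856 to 1.441 in the mutant, and values with this ratio as a covariate are given where they change a result.

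The sequence at the bins was nearly uniform. Reading on the sense strand, the 3 bases before the bin and the 3 bases of the bin both ended in AG in 511 of the 512 members, the pattern written NAGNAG. The triplet before the bin, which is the upstream acceptor, was CAG in 225 members, TAG in 161, AAG in 93 and GAG in 32. The bin itself, which carries the downstream acceptor, was CAG in 251 members, AAG in 143, TAG in 74 and GAG in 44. Over 103123 whole introns that end in AG in genes over the same read limit, 4.42% had another AG 3 bases into the exon on the sense strand, and 1.53% had one 3 bases before their own. By the reference annotation 434 members lay in coding sequence, 65 in 5′ UTRs and 10 in 3′ UTRs, and 3 were in genes with no coding sequence. Among coding members, 204 inserted their bases between codons and 213 inside a codon.

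The windows below show the members that the results turn on, from 20 bases before the bin to 6 bases after it, 5′ to 3′ on the gene's strand, read from the TAIR10.1 reference. Capitals mark the NAGNAG: the upstream acceptor cuts between its 2 triplets and the downstream acceptor cuts after it. The first 3 show pairs used almost wholly at 1 site, the next 5 pairs used at both sites, and the last 2 introns with more reads in the mutant.
CA2, chr5:4762198-4762226, plus strand: tgaatgtatgaatattgCAGGAGgcagtg
PSBQA, chr4:11335072-11335100, plus strand: aatttgttttgtttggtGAGCAGctggga
AT5G02870, chr5:659393-659421, plus strand: tttttccttctttactgTAGGAGgaggcc
emb1138, chr5:9285610-9285638, minus strand: tgattgatgcctttaaaCAGAAGttttgg
RSH1, chr4:988596-988624, plus strand: tcctaatttcattatttTAGCAGttacgg
BIM1, chr5:2607379-2607407, minus strand: gtgatccatttacattaTAGCAGagtaac
DUF7, chr3:23055737-23055765, plus strand: actttgtgtgtttcctgCAGCAGttatct
AT1G29850, chr1:10448826-10448854, plus strand: tcactaaactgcatcatTAGCAGggtaag
UREG, chr2:14532259-14532287, minus strand: tctctacttcttctgtcAAGTAGgaaatc
AT4G16360, chr4:9246122-9246150, plus strand: gttttggggggtttgatCAGAAGtcggct

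Both sites were in use at most members. Junction reads fell on both acceptors in 452 of the 512 members, and from the same donor in 450. The upstream acceptor had 0 reads over all 6 libraries in 36 members and the downstream acceptor in 29, of which 5 had reads at neither. For a test, a pair of junctions from 1 donor needed a total of 10 or more reads in 3 or more libraries, and its lesser acceptor 10 or more reads over all libraries. These limits were met by 375 members, and 137 were not tested, 133 of them for too few reads at the lesser acceptor from a shared donor. The tested pairs had 62 to 68383 reads over the 6 libraries, with a median of 535.

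How often the upstream acceptor was used followed the letters of the 2 triplets. This is a description over the 301 pairs with at least 20 pair reads in every library, with each pair's share averaged over the libraries of a genotype. In wild type the median upstream share was 96.0% in the 47 CAGAAG pairs and 90.2% in the 21 TAGAAG pairs. It was 54.5% in the 66 CAGCAG pairs and 55.8% in the 21 TAGTAG pairs, while among the other pairs with like triplets it was 64.9% in the 13 AAGAAG pairs and 90.5% in the single GAGGAG pair. It was 26.5% in the 59 TAGCAG pairs and 9.69% in the 25 AAGCAG pairs. The remaining classes with over 10 pairs were CAGTAG, with 20 pairs and a median of 77.4%, and AAGTAG, with 11 pairs and a median of 11.1%. All 14 pairs with CAGGAG or TAGGAG lay at 85.6% or higher, and both GAGCAG pairs at 4.29% or lower. These pairs covered only 5 of 19 CAGGAG, 9 of 21 TAGGAG and 2 of 27 GAGCAG members. Within a class the spread was wide, from 3.39% to 97.6% among CAGCAG pairs. The pyrimidine content of the 20 bases before the NAGNAG, 65% at the median of the CAGCAG pairs, had a Pearson r of 0.078 with the share over those 66 pairs, which share their libraries.

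In the mutant most classes had medians close to these. They were 96.0% for CAGAAG, 90.3% for TAGAAG, 53.9% for CAGCAG, 57.2% for TAGTAG, 28.0% for TAGCAG and 7.19% for AAGCAG, with 64.0% for AAGAAG and 77.0% for CAGTAG. The AAGTAG class had 6.04%, below AAGCAG, where in wild type it was above, although the median change of its 11 pairs was 1.59 points. Over all 301 pairs the median upstream share was 60%, 61.5% and 63.2% in the wild type libraries, against 58.7%, 60.5% and 61.8% in the mutant libraries. The libraries of the genotypes overlapped, and the mean difference of -1.19 points became 1.81 points among the 193 pairs with at least 50 reads in every library. With reads summed over the 301 pairs, a value chosen after seeing the data, the share was 67.8%, 65.2% and 65.5% in wild type, against 69.1%, 69.5% and 69.5% in the mutant, without overlap. These sums weight pairs by their reads, and without CA2 and PSBQA, the deepest pairs, they were 70.2%, 68.7% and 68.8%, against 69.5%, 70.1% and 69.5%, which overlap. The median change per pair, mutant minus wild type, was -0.0266 percentage points, with quartiles of -2.72 and 2.14 points. The share was higher in the mutant in 147 pairs and lower in 154. It differed by under 5 points in 231 pairs and by 10 points or more in 18, of which 8 were higher and 10 lower.

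**Figure D1:**
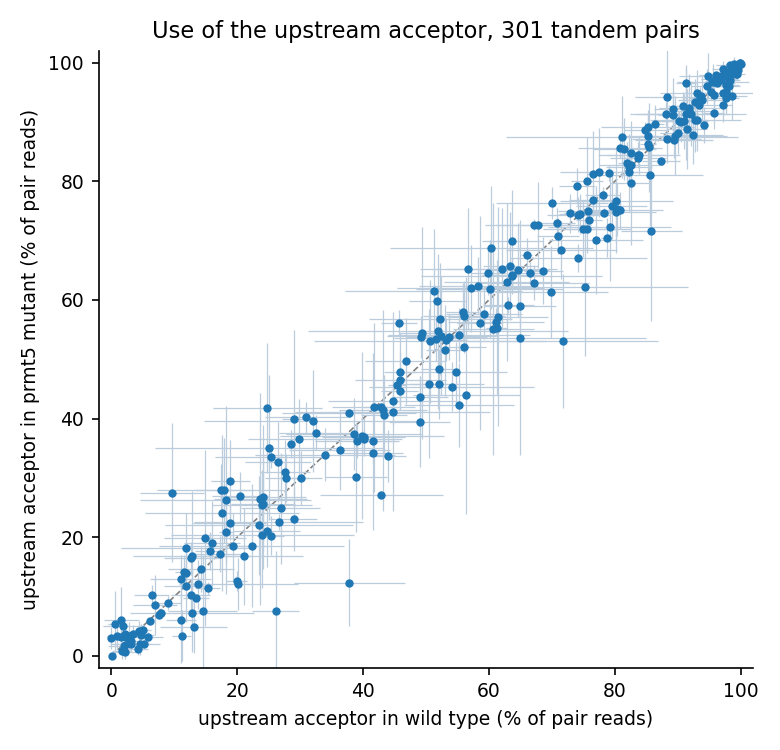
Share of pair reads at the upstream acceptor in wild type (x axis, percent) and in the prmt5 mutant (y axis, percent) for 301 tested tandem pairs with at least 20 reads in every library. Points are means and bars SD over 3 libraries, and the dashed line marks equal shares. The points run along the line from 0 to 100%, and 231 of them lie within 5 points of it.

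Libraries of different genotypes differed at these sites about as much as libraries of 1 genotype. Between 2 libraries, the median absolute difference in share over the 301 pairs was 3.6 to 4.17 points within wild type, 3.74 to 4.02 points within the mutant, and 3.24 to 4.48 points in the 9 comparisons between genotypes. The correlation of shares between libraries was 0.96 to 0.968 within wild type, against 0.953 to 0.975 between genotypes, over the same 301 pairs. The median pair held 86 to 172 reads in a library, so all these differences include counting error. The smallest differences between genotypes were with wild type replicate 2, the library with 172. How much of the differences is counting error was not tested. The median SD of a pair was 3.43 points in wild type, against 3.33 points in the mutant (n = 3 each). Pairs in coding exons had a median absolute change of 2.59 points (251 pairs), pairs in 5′ UTRs 2.57 points (39 pairs) and pairs in 3′ UTRs 0.839 points (9 pairs). Coding pairs between codons (116 pairs) and inside a codon (131 pairs) had median upstream shares of 61.6% and 56.7% in wild type, against 61.7% and 56.1% in the mutant.

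The comparison of the genotypes tested, in every pair of neighbouring acceptors of 1 donor, whether the ratio of upstream to downstream reads differed. None of the 375 tandem pairs was called by diffSpliceDGE of edgeR at an adjusted p under 0.05, and the smallest edgeR adjusted p was 0.231. Over all 6714 pairs of neighbouring acceptors at any distance, 60 were called, or 0.894%. At an unadjusted p under 0.05 there were 11 tandem pairs, or 2.93%, against 9.44% of all pairs. DESeq2 also called 0 tandem pairs, as did a fit with a term for each library that was chosen after seeing the data. The median log2 change of the ratio was -0.01 in tandem pairs, with quartiles of -0.38 and 0.31, and -0.02 over all pairs, with quartiles of -0.7 and 0.67. Pairs 4 to 6 bases apart also had 0 calls, among 1456, while 24 of 600 pairs over 200 bases apart were called; these classes were not tested against each other.

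A missing call does not show that the genotypes act alike at a site, and the precision differed widely between members. The median SE of the log2 ratio was 0.65 in tandem pairs and 1.05 over all pairs. The main fit had no term for each library. Spread that both junctions of a library share can therefore enter these SEs, although it cancels in the ratio. In 65 of the 375 pairs the estimate with 2 SE to each side stayed within a log2 change of 1, and in 235 it stayed within 2. In the remaining pairs the interval did not exclude a change of that size. Of the 120 pairs with an SE under 0.5, the changes ran from -0.91 to 0.6.

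**Figure D2:**
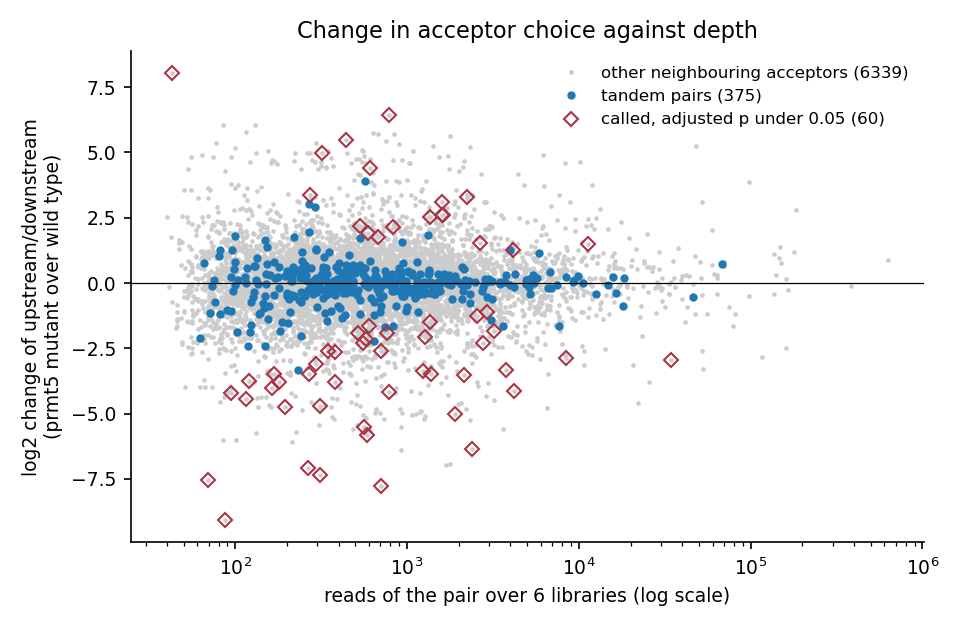
Log2 change of the ratio of upstream to downstream acceptor reads, mutant over wild type (y axis), against the reads of the pair over 6 libraries (x axis, log scale). Tandem pairs (375, filled blue points) lie around 0 and none carries a diamond, which marks the 60 of 6714 pairs called at an edgeR adjusted p under 0.05; grey points are the other pairs.

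The 6 pairs with the most reads had SEs of 0.23 to 1.2 on the log2 scale, so the deepest pairs were not always the most precise. CA2 encodes a carbonic anhydrase and had the deepest pair. Its downstream acceptor took 12, 30 and 12 of 9199, 18019 and 8936 reads in the wild type replicates, against 10, 14 and 5 of 10812, 11034 and 10383 in the mutant replicates. All 6 libraries thus used the upstream CAG almost wholly (log2 change 0.72 ± 0.54 SE, edgeR adjusted p = 0.771). PSBQA, a subunit of the oxygen-evolving complex of photosystem II, has the reverse order, with GAG before CAG. Its upstream acceptor took 2, 3 and 6 reads in wild type, against 2, 1 and 1 in the mutant, of 4477 to 16027 pair reads in a library. ROC4, a chloroplast cyclophilin whose locus overlaps another gene, had at most 7 reads at its downstream GAG in a library. At AT5G02870, a gene of large-subunit ribosomal protein L4, a family whose copies may share reads, the upstream TAG took 98.7% ± 0.239 in wild type, against 98.2% ± 0.177 in the mutant (SD, n = 3 each; edgeR adjusted p = 0.84).

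In the other 2 deep pairs both sites were used more evenly. At AT4G39200, a gene of small-subunit ribosomal protein S25, the upstream share was 93.5%, 93.8% and 93.9% in wild type, against 94.5%, 94.6% and 94.1% in the mutant. The groups did not overlap, but the log2 change was only 0.18 ± 0.23 (SE, edgeR adjusted p = 0.917). In emb1138, which encodes the chloroplast DEAD-box RNA helicase RH3 and overlaps another locus, the upstream CAG took 78.8%, 78.7% and 79.5% in wild type, against 82.1%, 82.1% and 79.9% in the mutant. The groups did not overlap, with mutant replicate 3 closest to wild type (log2 change 0.22 ± 0.24 SE, edgeR adjusted p = 0.896).

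Across the 301 pairs with the read limit, 33 had shares that did not overlap between the genotypes, 14 higher and 19 lower in the mutant. That is 11%, against 15.0% of all 5103 neighbouring acceptor pairs under the same limit (6.8% of them higher and 8.21% lower in the mutant).

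The 4 pairs with the largest difference in share among those with at least 50 reads in every library were in RSH1, SHH2, AT4G32620 and BIM1. RSH1 belongs to the family of enzymes that make and break the alarmone ppGpp in chloroplasts. Its upstream TAG took 30 of 64, 62 of 195 and 45 of 90 reads in the wild type replicates, against 57 of 206, 64 of 238 and 54 of 203 in the mutant replicates. The mutant shares lay close together at 27.1% ± 0.553, below the wild type shares of 42.9% ± 9.73 (SD, n = 3 each), and wild type replicate 2, at 31.8%, lay closest to the mutant. The log2 change was -0.91 ± 0.40 (SE, edgeR adjusted p = 0.376). BIM1, a bHLH protein of brassinosteroid signalling, also has TAGCAG, and its upstream share went the other way. It took 42.3%, 47.7% and 47.0% in wild type, against 58.7%, 54.8% and 55.2% in the mutant, without overlap (log2 change 0.58 ± 0.39 SE, edgeR adjusted p = 0.709).

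SHH2, a homeodomain protein gene, had upstream shares of 46.8%, 54.3% and 64.3% in wild type, against 38.1%, 50.6% and 38.4% in the mutant, which overlapped. AT4G32620, annotated as an Enhancer of polycomb-like protein gene, had 7.81%, 28.0% and 16.5% against 32.8%, 26.6% and 24.6%. Wild type replicate 2 lay inside the mutant range there, and neither gene passed the test (edgeR adjusted p = 0.743 and 0.79).

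Another 4 pairs were chosen after their values were seen, DUF7 and AT1G29850 for the smallest p and OTLD1 and ATRER1C1 as deep pairs without overlap. DUF7 codes for an agenet domain protein. Its upstream CAG took 11 of 23, 19 of 61 and 10 of 29 reads in wild type, against 6 of 42, 2 of 48 and 7 of 38 in the mutant. The groups did not overlap, and the mutant share was lower in all 3 libraries (12.3% ± 7.33 against 37.8% ± 8.83, SD, n = 3 each). The log2 change was -2.02 ± 0.76 (SE), with an unadjusted p of 0.00874 and an edgeR adjusted p = 0.231 over all pairs. The reads were few, with a 95% Wilson interval of 29.2% to 67.0% in wild type replicate 1, and such intervals cover counting error only.

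AT1G29850, annotated as a double-stranded DNA-binding family protein gene, had a deeper pair. Its upstream TAG took 69 of 375, 115 of 533 and 56 of 285 reads in wild type, against 45 of 367, 62 of 428 and 37 of 332 in the mutant. Every mutant share, from 11.1% to 14.5%, was below every wild type share, from 18.4% to 21.6% (log2 change -0.77 ± 0.33 SE, edgeR adjusted p = 0.368). OTLD1, a histone deubiquitinase gene, used its upstream AAG in 47.2%, 42.4% and 42.1% of reads in wild type, against 32.7%, 38.5% and 29.9% in the mutant (edgeR adjusted p = 0.528). ATRER1C1, a Rer1 family gene whose products return membrane proteins to the endoplasmic reticulum, used its upstream CAG in 78.7% ± 0.856 and 70.5% ± 3.25 (SD, n = 3 each; edgeR adjusted p = 0.537). None of these differences held up against the adjustment over all pairs.

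**Figure D3:**
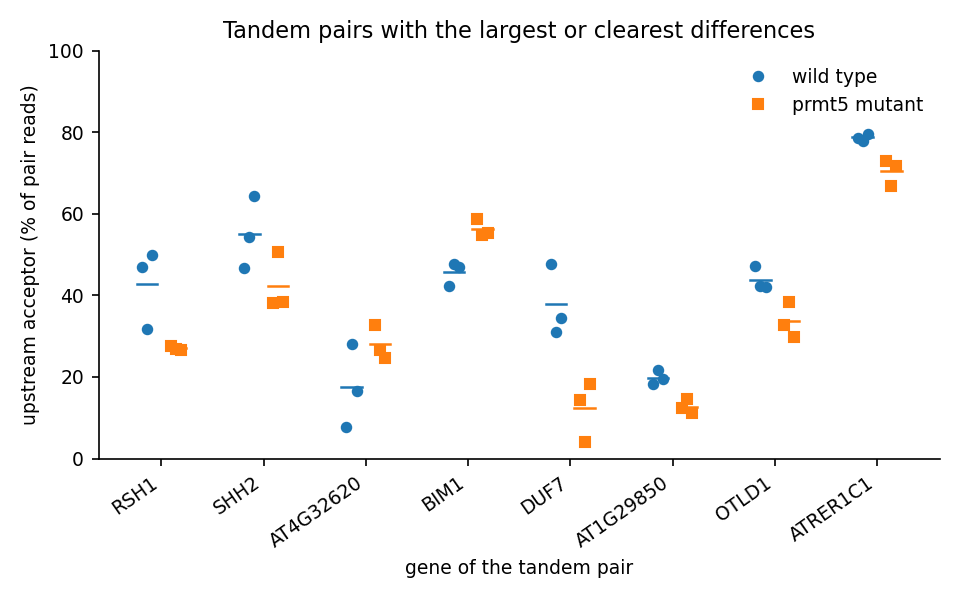
Share of pair reads at the upstream acceptor (y axis, percent) in each of 3 wild type (circles) and 3 prmt5 mutant libraries (squares) for the 4 pairs with the largest difference and the 4 pairs chosen after their values were seen; short lines are means. The groups overlap at SHH2 and AT4G32620 and do not overlap at the other 6 genes, and no pair passed the test.

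In some genes more than 2 acceptors followed each other, so that members shared junctions: in 6 cases the downstream acceptor of a tested member was the upstream acceptor of the next, in 4 genes. Those in LSD1 and RP1 were chosen after their values were seen and are shown here for the run of triplets that each holds, with the capitals marking a single member of the run.
LSD1, chr4:11004999-11005027, plus strand: tgtgtgtgtttggatgaAAGTAGcagata
RP1, chr1:16266956-16266984, plus strand: ttgtattactgttgatgTAGAAGaagaag
LSD1 encodes a zinc finger regulator of cell death. The AAG that opens its coding run had 0 reads in each wild type library, beside 42, 95 and 40 at the following TAG. In the mutant replicates the AAG had 1, 6 and 5 reads, beside 117, 156 and 107 at the TAG (edgeR adjusted p = 0.375). The CAG that closes the run took 14, 14 and 11 reads in wild type, against 43, 37 and 44 in the mutant, and its share with the TAG overlapped between the genotypes. In another member of LSD1, in the 5′ UTR, the downstream acceptor had 0, 0 and 2 reads in wild type, against 1, 15 and 11 in the mutant (edgeR adjusted p = 0.513). The AAG and this 5′ UTR acceptor reached the read limit of a lesser acceptor only through the mutant libraries. Each had to have more reads in the mutant for its pair to be tested. LSD1 RNA was also higher in the mutant (log2 change 0.78 ± 0.09 SE, edgeR adjusted p = 9.27e-05). These counts are therefore not support for a difference in acceptor choice.

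RP1, a ribosomal protein gene whose family copies may share reads with it, had 4 tested members in a row, which join 5 acceptors in its 5′ UTR. The first acceptor, TAG, took 510, 672 and 333 reads in wild type, against 549, 627 and 318 in the mutant. The AAG after it took 11, 31 and 17 reads, against 18, 26 and 10. Each of the 3 acceptors further on took 1 to 14 reads in a library. The TAG thus led in all 6 libraries, at 96.2% ± 1.47 of the first pair in wild type, against 96.6% ± 0.506 in the mutant (SD, n = 3 each; edgeR adjusted p = 0.985).

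The introns in front of the tandem sites gave a readout that the choice of members did not use. At the tandem sites 490 intron bins adjoined a member, and 192 of them had 10 or more reads in 3 or more libraries. Relative to the gene, 67 of the 192 were called by the quasi-likelihood test of edgeR, or 34.9%, against 27.9% of all 34408 introns tested. In the mutant 66 rose, or 34.4%, against 26.7% of all introns, and a single one fell, against 1.21%. The median of intron reads per 100 gene reads was 0.901, 0.819 and 0.854 in the wild type libraries, against 1.43, 1.37 and 1.53 in the mutant libraries, so the groups did not overlap. Over all tested introns it was 0.838 to 0.936 in wild type, against 1.43 to 1.56 in the mutant. The median log2 change was 0.58 for these 192 introns and 0.46 over all. Of the 192, 19 reached the read limit through mutant libraries alone, with under 10 reads in each wild type library. They were 9.9%, against 9.56% of all tested introns, and 16 of these 19 are among the 66 that rose. Introns admitted in this way had to have more reads in the mutant, though not more relative to the gene, as in LUH (log2 change 0.16 ± 0.65 SE). The count is therefore not support for a difference from other introns. Others with a single wild type library at the limit also needed mutant libraries, and are not among the 19. With coverage along genes as a covariate, 32 of the 192 were called, all of them higher. Calls over all 34408 introns fell too, and the share called was then close to that of all introns.

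The 5 raised introns with the smallest p went from nearly no reads to several reads per 100 of the gene. In AT3G20920, which encodes a translocation protein-like protein and overlaps another locus, the intron at 7330249 to 7330599 on chromosome 3 had 14, 8 and 4 reads in wild type, against 131, 127 and 120 in the mutant (log2 change 3.44 ± 0.33 SE, edgeR adjusted p = 1.67e-09). Its tandem pair kept to the upstream TAG in both genotypes, at 99.2% ± 1.43 and 98.1% ± 0.969 (SD, n = 3 each). The introns of AT4G16360 and AT5G06980 are among those that reached the read limit through the mutant libraries alone. Those of AT3G20920, UREG and GLX2-4 had 10 or more reads in a single wild type library and also needed mutant libraries. In AT4G16360, which encodes a beta subunit of the energy-sensing SNF1-related kinase, the intron at 9246045 to 9246141 on chromosome 4 had 6, 4 and 0 reads in wild type, against 60, 86 and 51 in the mutant. That is 0.139 ± 0.144 and 3.07 ± 0.552 reads per 100 gene reads, a log2 difference of 4.32 ± 0.46 (SE, edgeR adjusted p = 1.32e-08). The upstream share of the same pair was 80.8% ± 6.71 in wild type, against 85.6% ± 1.74 in the mutant.

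In the glyoxalase gene GLX2-4, the intron at 1860166 to 1860586 on chromosome 1 had 0, 15 and 9 reads in wild type, against 181, 194 and 132 in the mutant (log2 change 3.74 ± 0.37 SE, edgeR adjusted p = 4.18e-09). AT5G06980, named LNK4 for night light-inducible and clock-regulated 4 among its synonyms, had 2, 9 and 6 reads in wild type, against 84, 58 and 40 in the mutant, at its intron at 2168110 to 2168215 on chromosome 5 (log2 change 3.48 ± 0.40, edgeR adjusted p = 5.26e-08), while the upstream share was 91.3% ± 6.8 and 91.4% ± 7.76. The single lowered intron, in the oxysterol-binding protein gene ORP2A, had 61, 71 and 48 reads in wild type, against 44, 23 and 18 in the mutant (log2 change -0.89 ± 0.31, edgeR adjusted p = 0.0289). It lost the call without wild type replicate 1 (adjusted p 0.0563), wild type replicate 3 (0.0944), mutant replicate 2 (0.175) or mutant replicate 3 (0.131).

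Acceptor shares could be read in 45 of the 66 raised introns. Their median change in upstream share was -0.193 points, their median absolute change 1.63 points and their largest absolute change 12.8 points. In the 87 other tested introns with a share, the median absolute change was 1.26 points. Spliced reads in the mutant were thus divided between the 2 acceptors within a few points of wild type at most introns that also held more unspliced reads.

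**Figure D4:**
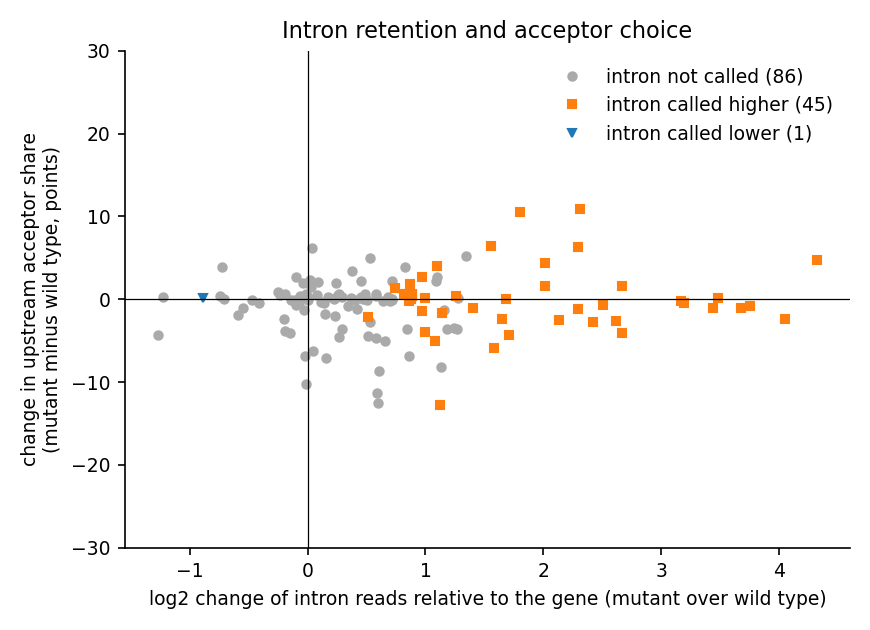
Change in the share of the upstream acceptor, mutant minus wild type in percentage points (y axis), against the log2 change of intron reads relative to the gene (x axis), for 132 introns in front of a tandem site with enough reads for both. The 45 introns called higher (squares) extend to a log2 change of 4.32 while their shares stay within 12.8 points of 0.

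The 3-base bins themselves were counted as exon bins, and this count joined both readouts. Of the 512 bins, 423 had enough reads, and 2 rose relative to their gene, or 0.473%. Of all 122139 exon bins tested, 0.095% were called, 0.0712% higher and 0.0237% lower. At an unadjusted p under 0.05 there were 57 members, or 13.5%, against 17.3% of all exon bins. The calls were in UREG and PSBQA. The UREG bin is 1 of 2 members that reached the read limit through the mutant libraries alone, as did 13 of the 87 exon bins called higher. Such bins had to have more reads in the mutant to be tested. UREG encodes an accessory protein that helps load nickel into urease, and its locus overlaps another. Its bin had 7, 8 and 2 reads in the wild type replicates, against 37, 45 and 52 in the mutant replicates (log2 change 3.34 ± 0.36 SE, edgeR adjusted p = 0.00625). Reads spliced to its upstream AAG numbered 6, 5 and 2 in wild type, against 2, 1 and 4 in the mutant, and did not go up with the bin. Reads in the intron in front numbered 7, 10 and 2 in wild type, against 47, 80 and 73 in the mutant (log2 change relative to the gene 3.75 ± 0.37 SE, edgeR adjusted p = 3.78e-09).

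The PSBQA bin had 107, 223 and 105 reads in wild type, against 144, 122 and 142 in the mutant, or 0.269 ± 0.0167 and 0.549 ± 0.063 per 100 gene reads (log2 change 1.03 ± 0.15 SE, edgeR adjusted p = 0.0425). Only 1 to 6 reads per library were spliced to its upstream acceptor, while the intron in front held 299 to 705 reads per library. That intron rose too, from 0.8 ± 0.0975 reads per 100 gene reads in wild type to 1.48 ± 0.246 in the mutant. Its log2 change relative to the gene was 0.88 ± 0.16 (SE, edgeR adjusted p = 8.12e-05). At both genes the reads of the bin in the mutant outnumbered the reads spliced to its upstream acceptor. The UREG call was lost without wild type replicate 1 (adjusted p 0.0578) and without mutant replicate 1 (0.053). The PSBQA call held without mutant replicate 3, where 27 member bins were called, against 2 in the main fit. That count was not set here against all exon bins, whose calls also varied widely without a library. The PSBQA call was lost without each of the other 5 libraries (adjusted p 0.128 to 0.265) and with the coverage covariate (0.195).

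**Figure D5:**
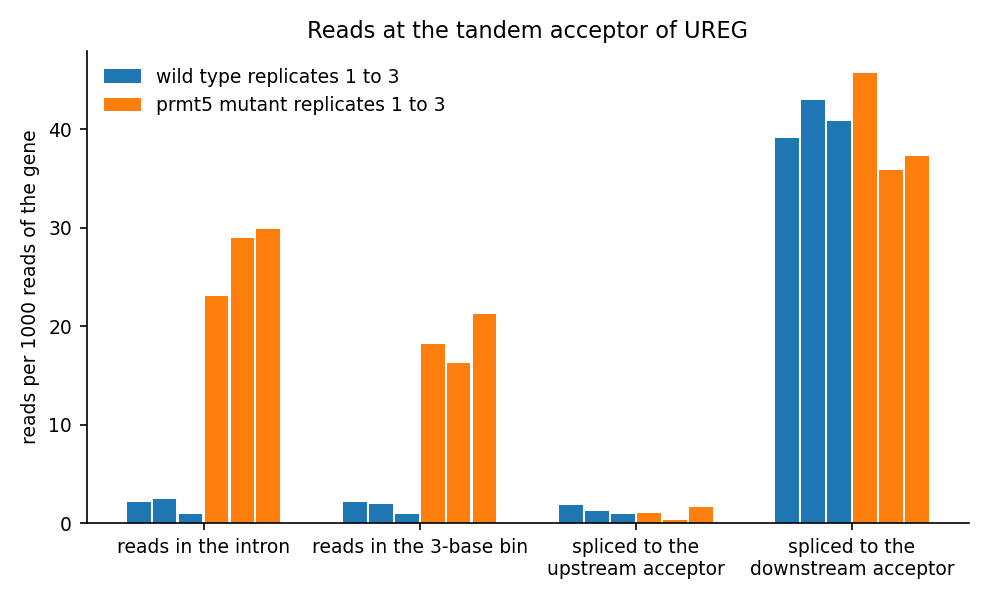
Reads per 1000 reads of the gene (y axis) at the tandem site of UREG in each library, for the intron in front, the 3-base bin, and junctions to the upstream and the downstream acceptor; bars within a colour are replicates 1, 2 and 3. Intron and bin reads are higher in all 3 mutant libraries, and reads spliced to the upstream acceptor number at most 6 in any library.

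The host genes were compared last. All 494 passed the expression filter, 118 rose (23.9%, against 18.6% of 21949 genes) and 86 fell (17.4%, against 15.9%) by the edgeR quasi-likelihood test. Their median log2 change was 0.03, against -0.02 over all genes. With the coverage covariate 65 host genes rose and 34 fell. Calls over all genes fell too, and the share of host genes called was then near that of all genes. Leaving out wild type replicate 3 or mutant replicate 2 left 56 and 55 that fell, counts that were not set against all genes.

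Of the host genes that rose, the 5 with the smallest p were LUH, SUA, AT3G46210, AT4G34140 and AT3G18500. LUH, a homologue of the corepressor LEUNIG, went from 91.9, 104 and 104 CPM in wild type to 402, 445 and 417 CPM in the mutant (log2 change 2.08 ± 0.11 SE, edgeR adjusted p = 3.67e-07). SUA, an RNA-binding protein named for its effect on splicing of ABI3, had 55.3 ± 3.6 CPM in wild type, against 189 ± 10.8 CPM in the mutant (SD, n = 3 each), with a log2 rise of 1.78 ± 0.10 (edgeR adjusted p = 4.87e-07). AT3G46210, which encodes a ribosomal protein S5 domain 2-like protein, went from 15.3 ± 2.39 to 58.7 ± 3.07 CPM. The G-patch protein gene AT4G34140 and the DNase I-like protein gene AT3G18500 had log2 changes of 1.12 and 1.09. In all of them each mutant library was above each wild type library.

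Of those that fell, the 5 with the smallest p were RFNR2, ATM2, BCA5, SAM1 and TGG2. SAM1, an enzyme that makes the methyl donor S-adenosylmethionine, fell from 408, 401 and 415 to 237, 223 and 211 CPM (log2 change -0.87 ± 0.11, edgeR adjusted p = 0.000128). RFNR2, a root ferredoxin-NADP reductase, fell from 110 ± 3.26 to 55.9 ± 2.28 CPM (SD, n = 3 each; edgeR adjusted p = 1.72e-05). The myosin gene ATM2 had a log2 change of -1.41, the carbonic anhydrase gene BCA5 one of -0.76 and the myrosinase gene TGG2 one of -1.29. ATM2 and BCA5 overlap another locus, and TGG2 has a close paralogue with which it may share reads.

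A list of 13 genes of proteins that bind the 3′ splice site or act in the second catalytic step held no host gene of a tandem site. Of the 13, 3 rose and 0 fell by the edgeR quasi-likelihood test, at the backgrounds given above, and the list's median log2 change was 0.22. The 3 were the PRP8 genes, which encode the protein at the core of the catalytic centre, and SMP2, a homologue of the yeast second-step factor Slu7. PRP8B had 126, 148 and 100 reads in wild type, against 296, 348 and 198 in the mutant (log2 change 1.29 ± 0.20 SE, edgeR adjusted p = 0.000648). PRP8A had 207 ± 15.8 CPM in wild type, against 290 ± 54.8 CPM in the mutant (SD, n = 3 each), with a log2 rise of 0.49 ± 0.14 (edgeR adjusted p = 0.0214). The call was lost without wild type replicate 3 (adjusted p 0.0961), mutant replicate 1 (0.0566) or mutant replicate 2 (0.109), nor with the coverage covariate (0.419). SMP2 went from 52.9 ± 3.98 to 65.8 ± 1.5 CPM (log2 0.31 ± 0.09, edgeR adjusted p = 0.0217). The call was lost without wild type replicate 2 (adjusted p 0.0656), wild type replicate 3 (0.114) or mutant replicate 2 (0.0739), nor with the coverage covariate (0.0838).

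The genes of the U2 auxiliary factor, which reads the acceptor first, had small changes. The small subunit genes had log2 changes of 0.21 ± 0.10 (U2AF35A) and -0.19 ± 0.10 (U2AF35B), and the large subunit genes 0.27 ± 0.10 (U2AF65A) and 0.05 ± 0.09 (U2AF65B), with edgeR adjusted p from 0.051 to 0.714. U2AF65A was called without wild type replicate 1 (adjusted p 0.0378) and by DESeq2 (0.0199), and U2AF35A without wild type replicate 1 (0.0213). The branch point protein gene SF1 had a log2 change of 0.18 ± 0.10, and the homologues of Prp16 (CUV), Prp17, Prp18 and Prp22 had 0.31, 0.08, -0.20 and 0.22, with none called.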

How the data were processed

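RNA of 6 libraries was sequenced, and the authors deposited unnormalized counts for genes, exon bins, intron bins and junctions. STAR and TAIR10 are named in the submitters' processing notes; no source used here names the counting program or strand setting. Of 32823 nuclear genes matched by locus tag, 32822 overlapped the TAIR10.1 reference gene. Of 173425 junctions, 7114 without a strand were left out; they held 0.127% of junction reads.

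Junction pairs were fitted with glmQLFit and diffSpliceDGE of edgeR 4.0.16 (R 4.3.3, TMM, robust); bins and introns with the quasi-likelihood test and log(gene count + 1) as offset, so library scaling does not enter; genes with the default filter. DESeq2 1.42.0 was an alternative. P-values were adjusted by Benjamini-Hochberg over each whole table and called under 0.05. SE came from the coefficient and its F value. The fits were tested on simulated data. Bins and introns needed 10 reads in 3 libraries.

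Members and lists were chosen with earlier results of these data known. Named were the 6 deepest pairs, the 4 largest share differences among pairs with 50 reads in every library, and the called introns, bins and genes with the smallest p (up to 5 per direction); exceptions are stated.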

Additional observations from a re-analysis of the deposited data

How the results depend on the processing

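No setting called a tandem pair: 0 under all 15 alternatives, with 213 to 434 members tested. Calls over all pairs were 60, between 10 (DESeq2) and 78 (a term for each library), 31 to 45 without a library, 24 with the coverage covariate, 21 with no filter on the lesser acceptor and 20 with the pair total as offset. The genotype difference in the median upstream share was -1.19 points, -1.97 to -0.365 without a library, and 1.81 points among pairs with at least 50 reads in every library, so its sign depends on that limit; with reads summed over pairs it was 3.23 points, and 0.443 points without the 2 deepest pairs. Members called among bins numbered 2, and 0 to 27 without a library, 0 with the replicate block, 1 with the coverage covariate and 5 by DESeq2; all called exon bins numbered 116, and 35 to 9965 without a library, 16 with the block, 39 with the covariate and 1415 by DESeq2. The covariate lowered called introns from 67 to 32 of 192, and over all introns from 9606 to 5623 of 34408. It lowered called host genes from 204 to 99 of 494, and over all genes from 7568 to 4059 of 21949. Called factor genes went from 3 to 1 with the covariate, and were 1 to 6 without a library. The log2 change changed sign for PSBQA without wild type replicate 3 (-0.53 to 0.28; -0.95 without wild type replicate 2) and, with the covariate, for ROC4 (3.89), AT4G32620 (-0.07) and CUV (-0.02), none of them called; the cause was not tested. Same-numbered libraries did not deviate together (r -0.131, -0.0421 and 0.0011 over genes), nor did every library correlate best with its own number. With 3 libraries per group this cannot exclude a shared batch, so the numbers were only not taken as pairs. The replicate block called 0 tandem pairs, 60 introns and 187 host genes. The last 2 counts were not set against all introns and all genes. Another library scaling could not be tried for bins and introns, since none enters those fits.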

Other observations

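Another 462 pairs of acceptors 3 bases apart passed the same read limits but were not among the members. All 462 had the NAGNAG pattern on the sense strand. Their lesser acceptor took a median of 7.26% of pair reads, against 19.5% in the members. By diffSpliceDGE of edgeR 0 of the 462 were called, the smallest adjusted p was 0.0756, and 30 had an unadjusted p under 0.05, or 6.49%. A further 4 pairs joined the acceptors of a member to another donor, and 0 of them were called.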
